A study of Mus musculus with 32 samples.

Results

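The blood arrays of 2 mouse models of autism were set against each other, to ask which genes moved together and which moved apart when Fmr1 was lost or when 1 copy of Tsc2 was lost. Blood is 1 of the 2 tissues measured, so 16 of the 32 arrays of the series belong here, 1 array for each mouse. Blood came from 5 Fmr1-KO mice and their 5 WT littermates on a congenic C57BL/6 background, and from 3 Tsc2+/- mice and their 3 WT littermates on a mixed 129/SvJae-C57BL/6J background. All mice were killed at 8 to 10 weeks of age. The knockout and the heterozygous loss are present in every cell of the animal, blood cells included. Each model has its own strain and its own experiment, so that strain, experiment and model cannot be told apart in any difference between models. The labels call the mice female and the methods male. Y-linked Kdm5d had intensities of 265 to 852 on all 16 arrays, and Xist, the RNA of the inactive X chromosome, 17.3 to 62.6.

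FMRP, the product of Fmr1, binds messenger RNAs and holds back their translation, most of all at synapses. Tuberin, the product of Tsc2, forms with hamartin a complex that keeps the GTPase Rheb inactive, and through Rheb restrains mTORC1, a kinase that turns on protein synthesis and cell growth. Both proteins therefore act on protein synthesis, by different routes, and both are made in blood cells as well as in neurons. Blood RNA is a mixture of red cell precursors, platelets, neutrophils, monocytes and lymphocytes, so a lower level of a gene can come from fewer cells of a type or from less RNA per cell, which bulk RNA cannot tell apart.

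In what follows, the effect in a model is the mean log2 intensity of its mutant mice minus that of its WT littermates. The interaction is the Fmr1-KO effect minus the Tsc2+/- effect, and the mean effect is the average of both. A probe set was counted as moving apart when the interaction had an unadjusted p under 0.01 and the effects had opposite signs, and as moving together when the mean effect had an unadjusted p under 0.01 and the effects had the same sign. Errors of effects are standard errors of the limma fit, in log2 units. Beside most named genes stands an exact two-sided permutation p, from the 5040 ways of giving out the genotypes within each experiment. The smallest possible p is 4e-04. The permutation tests the case of no effect in either model.

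Several arrays stood apart from the rest before any comparison. Albumin (Alb), made by liver cells, had intensities of 90748, 78059 and 14018 in Tsc2+/- mice 1 to 3 and of 102, 20231 and 112421 in their WT littermates 1 to 3, against 61.5 to 153 on the 10 arrays of the Fmr1 experiment. Platelet factor 4 (Pf4) was at 562 in Tsc2+/- mouse 2 and at 335 in WT mouse 3 of that experiment, and at 3446 or above on the other blood arrays. The same WT mouse 3 had the highest level of Cd3e, a chain of the T cell receptor complex, at 9471, and of Top2a, a topoisomerase of dividing cells, at 5802. Fmr1-KO mouse 3 had the highest mean level of a list of cerebellum genes, at 131 against 39.3 or below on the other blood arrays. Calb1 was at 108 against 18.2 or below, and Gabra6 at 79.5 against 25.6 or below. Other markers did not set this array apart. Cbln1 was higher in Fmr1-KO mouse 1 (59.3 against 55.5) and Gfap in Fmr1-KO mouse 5 (245 against 204). Pcp2 was at 138 beside 129 in WT mouse 5 of that experiment, and Mbp was within the range of its group. Of the 17 list genes measured, 3 had a mean intensity of at least 64. The array medians were between 134 and 186, and no pair of blood arrays had identical values, so none was a copy of another. Erythroid Alas2 was between 16195 and 19252 throughout. Slc4a1, also of red cells, was at 6251 to 9714 in the Tsc2 experiment and at 12067 to 15906 in the Fmr1 experiment. Csf3r, of neutrophils, was at 1385 in Tsc2+/- mouse 2 and at 965 in WT mouse 3 of the Tsc2 experiment, against 4159 or above elsewhere. Markers of B cells, T cells, natural killer cells and monocytes were measured on every array.

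Of 35556 probe sets, 174 moved apart (0.489%) and 83 moved together (0.233%). Moving apart was lopsided. Lower in Fmr1-KO and higher in Tsc2+/- blood were 152 probe sets (0.427%), and 22 (0.0619%) were higher in Fmr1-KO and lower in Tsc2+/- blood. Among those moving together, 60 (0.169%) were lower and 23 (0.0647%) higher in both. The interaction passed an unadjusted p of 0.01 in 181 probe sets (0.509%) and the mean effect in 96 (0.27%), both under the 1% that evenly spread p-values would give. In that interaction count the Fmr1-KO effect lay below the Tsc2+/- effect in 156 (0.439%) and above it in 25 (0.0703%), and in that mean effect count 69 (0.194%) were lower and 27 (0.0759%) higher. Single arrays moved these counts. Moving apart were 343 without Fmr1-KO mouse 4, 324 without Tsc2+/- mouse 1, 347 without WT mouse 3 of the Tsc2 experiment, 113 without WT mouse 1 of that experiment and 111 without WT mouse 1 of the Fmr1 experiment. Moving together were 158 without Tsc2+/- mouse 1, while leaving out a WT littermate of the Tsc2+/- mice gave 156 (mouse 1) and 126 (mouse 3). Without WT mouse 3 the split of those moving together turned, to 54 lower and 72 higher in both, and that of those moving apart became 276 and 71. After Benjamini-Hochberg adjustment in limma, 1 probe set stayed under an adjusted p of 0.05 in each contrast, and at an unadjusted p under 0.05 there were 1289 and 701. That 1 probe set carries no gene name and had intensities of 0.00075 to 7.01, so its log2 interaction of 10.52 (adjusted p = 0.00753 by limma) comes from values near 0, and with an offset of 16 no probe set passed. The genes named below therefore rank first in their direction and do not pass correction for the number of probe sets (adjusted p = 1 by limma for all of them in both contrasts). They were chosen by these contrasts, so a permutation p beside a gene is a description of how it sits among the labellings and not a new test.

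The lopsided split was smaller once the arrays were scaled to a common level. Over all probe sets the median effect was -0.07 in Fmr1-KO and 0.04 in Tsc2+/- blood, which puts the median interaction at -0.11. With each array centred on its median, the interaction p passed 0.01 with the Fmr1-KO effect below the Tsc2+/- effect in 78 probe sets and above it in 64, against 156 and 25 as deposited, and 71 and 56 probe sets moved apart in those directions. Normalizing the blood arrays to common quantiles gave 117 below and 88 above, with 63 lower and 73 higher among those moving together. Of the 174 probe sets moving apart, 87 did so after centring and 103 after quantile normalization. The 38 probe sets named by rank kept the sign of both effects under both scalings. Across the 17236 named probe sets with a mean intensity of at least 64, the effects in the models had a Pearson correlation of -0.10 and differed in sign for 57.1% of probe sets. This is a description across genes, which are not independent of each other.

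**Figure D1:**
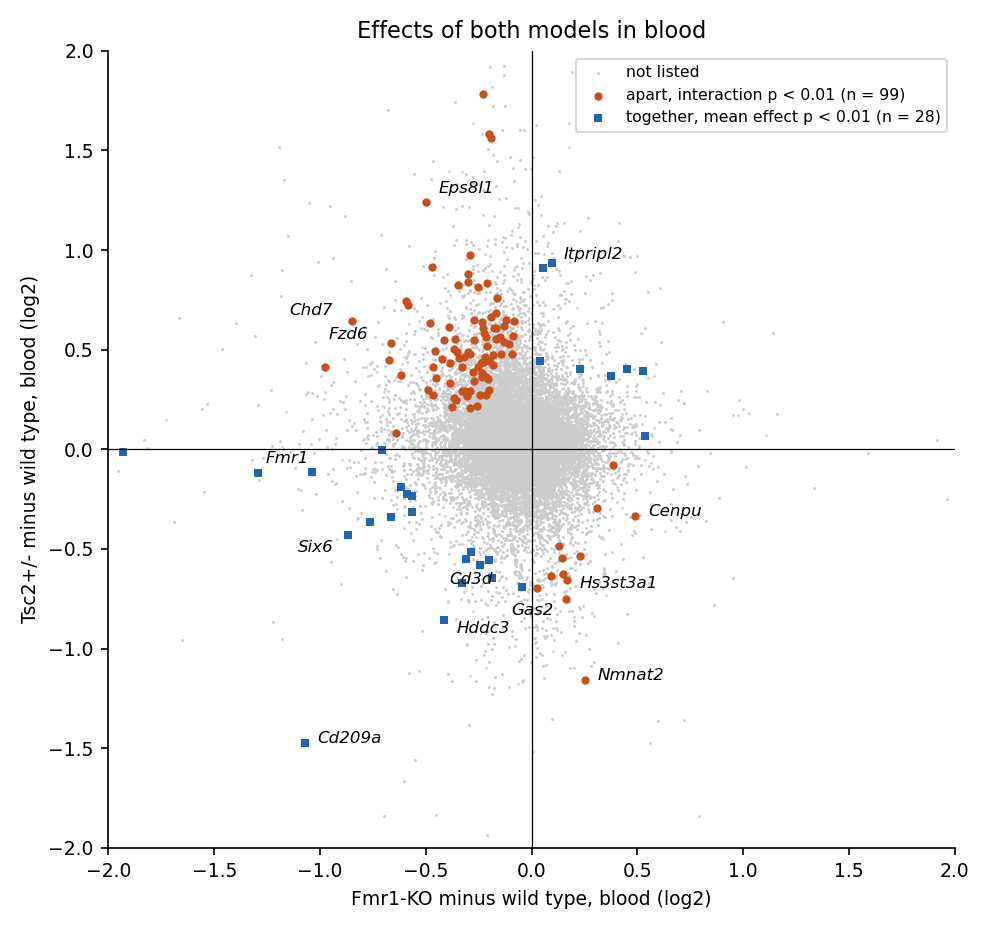
Each point is a singly named probe set whose mean intensity reached 64, at its log2 difference in Fmr1-KO blood (horizontal axis) and in Tsc2+/- blood (vertical axis), each against WT littermates; 31 lie beyond the axes. The 99 coloured probe sets that moved apart lie in the upper left and lower right corners, most of them upper left, and the 28 that moved together lie in the lower left and upper right.

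Among genes lower in Fmr1-KO and higher in Tsc2+/- blood, Eps8l1 had the widest gap of the 20 probe sets named as moving apart. Eps8l1 belongs to the family of Eps8, an adaptor that ties growth factor receptors to the actin skeleton, and the study singled it out in these same mice, so its place here is not independent. Its values in blood were 84.5, 123, 75.7, 109 and 139 in Fmr1-KO mice and 138, 143, 167, 152 and 134 in their WT littermates. Tsc2+/- mice had 387, 271 and 182, against 104, 80.0 and 173 in their WT littermates. The Tsc2+/- values all lay above those of WT, while Fmr1-KO mouse 5 reached into the WT range of its experiment. The effects were -0.50 ± 0.24 in Fmr1-KO and 1.24 ± 0.31 in Tsc2+/- blood, an interaction of -1.74 ± 0.40 (exact p = 0.00119). The gene stayed under the threshold of 0.01 in the limma fit when any 1 array was left out, and without Tsc2+/- mouse 2 and WT mouse 3 together. In the cerebellum of the same mice the effects were -0.15 and 0.82 (exact interaction p = 0.0353).

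The promoter of Eps8l1 is shown because it had the widest gap of those 20 probe sets. RefSeq lists 3 promoters for it on GRCm38.p6, and the first spans chr7:4460447-4460746 on the plus strand, with 250 bases before and 50 from the start. Capitals mark the ETS core GGAAG, found here as its reverse complement 3 bases before the start.

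Eps8l1: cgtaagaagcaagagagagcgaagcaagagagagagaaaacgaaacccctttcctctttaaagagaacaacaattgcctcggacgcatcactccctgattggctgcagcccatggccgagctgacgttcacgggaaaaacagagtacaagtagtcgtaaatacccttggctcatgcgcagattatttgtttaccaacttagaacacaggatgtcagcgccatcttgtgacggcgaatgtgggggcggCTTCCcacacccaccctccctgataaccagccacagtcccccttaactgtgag

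GGAAG, on either strand, occurs in 71.4% of the 32851 mouse promoters of that length, so its presence is a description of this window only.

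Chd7 encodes a chromatin remodeler of the CHD family whose loss causes CHARGE syndrome. The array carries 30 probe sets within Chd7, and all 30 were lower in Fmr1-KO (26 with arrays rescaled) and higher in Tsc2+/- blood, with median effects of -0.18 and 0.35. These probe sets share the same RNA and are not separate evidence. An interaction p under 0.05 was reached by 12 of the 30 and one under 0.01 by 2, with 6 at p under 0.05 once Tsc2+/- mouse 2 and WT mouse 3 were left out, and 2 without WT mouse 3 alone. With arrays centred on their medians, or quantile normalized again, all 30 were still higher in Tsc2+/- blood and 3 reached an interaction p under 0.05. The probe set furthest apart, 10503214, had intensities of 47.2, 61.8, 58.3, 66.7 and 40.4 in Fmr1-KO mice, against 137, 72.9, 91.7, 104 and 91.3 in WT littermates, with no overlap. Tsc2+/- mice had 258, 145 and 232 and their WT littermates 128, 163 and 109, which overlapped. The effects were -0.85 ± 0.21 and 0.64 ± 0.27, and the interaction was -1.49 ± 0.34 (exact p = 0.00159). It stayed under the threshold of 0.01 when any 1 array was left out. In cerebellum its effects had the same sign in both models, at -0.24 and -0.11.

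Fzd6, a receptor for Wnt ligands, was at 75.9, 104, 73.5, 58.4 and 63.7 in Fmr1-KO blood and at 123, 114, 102, 124 and 122 in WT blood, where only Fmr1-KO mouse 2 reached the WT range. Tsc2+/- blood had 151, 248 and 192 and WT blood 86.4, 161 and 171. Both effects, -0.67 ± 0.21 and 0.53 ± 0.27, gave an interaction of -1.20 ± 0.34 (exact p = 0.00437), which missed the threshold of 0.01 without Tsc2+/- mouse 2 and, separately, with the level of liver genes as a covariate. Vkorc1 encodes the vitamin K epoxide reductase that warfarin blocks, and is strongly made in liver. Its intensities were 252.2, 211, 261, 288 and 162 in Fmr1-KO mice, against 312, 327, 390, 333 and 258 in WT littermates. All 3 Tsc2+/- mice, at 476, 585 and 689, lay above their WT littermates at 334, 444 and 348. The interaction was -1.11 ± 0.28 (exact p = 0.00119). Liver genes were high on arrays of both genotypes of the Tsc2 experiment, and with their level as a covariate in the fit the interaction of Vkorc1 was -1.20. It missed 0.01 without Tsc2+/- mouse 2 and WT mouse 3 together, at an interaction of -1.05.

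The other genes in this direction were Tmem159, Cdk14, Smim10l1, Eid2b and Pfkl. Eid2b, related to an inhibitor of muscle differentiation, had effects of -0.67 ± 0.17 and 0.45 ± 0.22 (exact interaction p = 0.00119). Pfkl, the liver form of phosphofructokinase and a gate of glycolysis, had effects of -0.42 ± 0.15 and 0.45 ± 0.19 (exact interaction p = 0.000794). Cdk14, a cyclin-dependent kinase that acts in Wnt signalling, had effects of -0.58 ± 0.25 and 0.73 ± 0.32 (exact p = 0.00992). Tmem159, which takes part in lipid droplet formation, had effects of -0.59 ± 0.22 and 0.74 ± 0.28 (exact p = 0.00635). Of the 10 probe sets named in this direction, 6 kept an interaction p under 0.01 whichever array was left out, and 8 kept it without Tsc2+/- mouse 2 and WT mouse 3. With the level of liver genes as a covariate 7 of the 10 kept it. Their exact p ranged from 0.000794 to 0.0183.

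In the opposite direction, Cenpu encodes a subunit of the inner kinetochore. Fmr1-KO blood had 210, 233, 195, 200 and 253 and WT blood 154, 194, 174, 144 and 117, with every Fmr1-KO value above every WT value. Tsc2+/- blood had 113, 116 and 133 and WT blood 162, 129 and 168, which overlapped. Cenpu showed effects of 0.49 ± 0.14 and -0.34 ± 0.18 and an interaction of 0.83 ± 0.23 (exact p = 0.00159), which missed the threshold of 0.01 without Tsc2+/- mouse 2 and WT mouse 3. Hs3st3a1, a sulfotransferase that finishes heparan sulfate chains, had the smallest limma p for the interaction of the named genes. Its intensities were 140, 153, 138, 139 and 114 in Fmr1-KO mice and 128, 128, 135, 106 and 111 in WT littermates, which overlapped, and 64.9, 59.7 and 64.8 in Tsc2+/- mice against 107, 92.0 and 99.4 in WT littermates, which did not. The interaction was 0.82 ± 0.17 (exact p = 0.00595), and it stayed under the threshold of 0.01 with any 1 array left out.

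Cdca3, which helps trigger entry into mitosis, had 1002, 989, 1025, 1041 and 1347 in Fmr1-KO blood and 954, 918, 1084, 1049 and 853 in WT blood. Tsc2+/- values of 532, 551 and 567 all lay under the WT values of 710, 790 and 1084. The Fmr1-KO effect was 0.15 ± 0.13, within the spread of the mice, and the Tsc2+/- effect was -0.62 ± 0.17, so the interaction of 0.77 ± 0.21 (exact p = 0.0107) rested mainly on the Tsc2 experiment. Its promoter is shown because genes of the cell cycle often carry a CCAAT box and the CHR element TTTGAA. It spans chr6:124829926-124830225 on the plus strand of GRCm38.p6 (RefSeq). Capitals mark CCAAT at 104 (reverse strand), 71 and 4 bases before the start, and TTTGAA 31 bases after it.

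Cdca3: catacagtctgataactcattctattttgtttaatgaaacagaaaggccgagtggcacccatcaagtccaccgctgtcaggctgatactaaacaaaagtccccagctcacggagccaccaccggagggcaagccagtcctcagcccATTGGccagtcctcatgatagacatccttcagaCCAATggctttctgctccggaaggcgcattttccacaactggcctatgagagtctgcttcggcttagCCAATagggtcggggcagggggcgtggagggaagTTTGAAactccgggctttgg

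CCAAT occurs in 37.4% of all promoters of that length and TTTGAA in 17.9%, counting both strands. Of the 10 genes named as higher in Fmr1-KO and lower in Tsc2+/- blood, 9 had a RefSeq promoter, and the first promoter listed held CCAAT in 4 of these and TTTGAA in 2.

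Birc5, which encodes survivin, a passenger protein of chromosomes in mitosis, had effects of 0.14 ± 0.14 and -0.55 ± 0.18 (exact interaction p = 0.00913). Kif24, a kinesin that acts at centrioles, had effects of 0.23 ± 0.15 and -0.53 ± 0.19 (exact p = 0.00833). Car1, the carbonic anhydrase of red cells, was at 1847, 1813, 1706, 1883 and 1699 in Fmr1-KO and 1553, 1771, 1849, 1737 and 1324 in WT blood. It was at 514, 551 and 744 in Tsc2+/- blood and 821, 847 and 830 in WT blood, again with overlap in the Fmr1 experiment only. Its interaction was 0.61 ± 0.19 (exact p = 0.0107). Nmnat2, an enzyme of NAD synthesis known from axons, had the largest Tsc2+/- effect of these genes at -1.16 ± 0.31, beside 0.26 ± 0.24 in Fmr1-KO blood (exact p = 0.0206). Of the 10 genes named here, 3 (Cenpu, Hs3st3a1 and Cdca3) kept an interaction p under 0.01 whichever array was left out, and 1 kept it without Tsc2+/- mouse 2 and WT mouse 3, which was Hs3st3a1. Their exact p ranged from 0.00119 to 0.0329. Only Cenpu and Tmem101 had a p under 0.05 by limma for the Fmr1-KO effect itself (0.00361 and 0.0118). Tmem101 had effects of 0.31 ± 0.11 and -0.30 ± 0.14 (exact interaction p = 0.00119). The rest are higher in Fmr1-KO blood by sign only, with p of 0.119 or above by limma, down to an effect of 0.09 ± 0.15 for Fam234b.

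**Figure D2:**
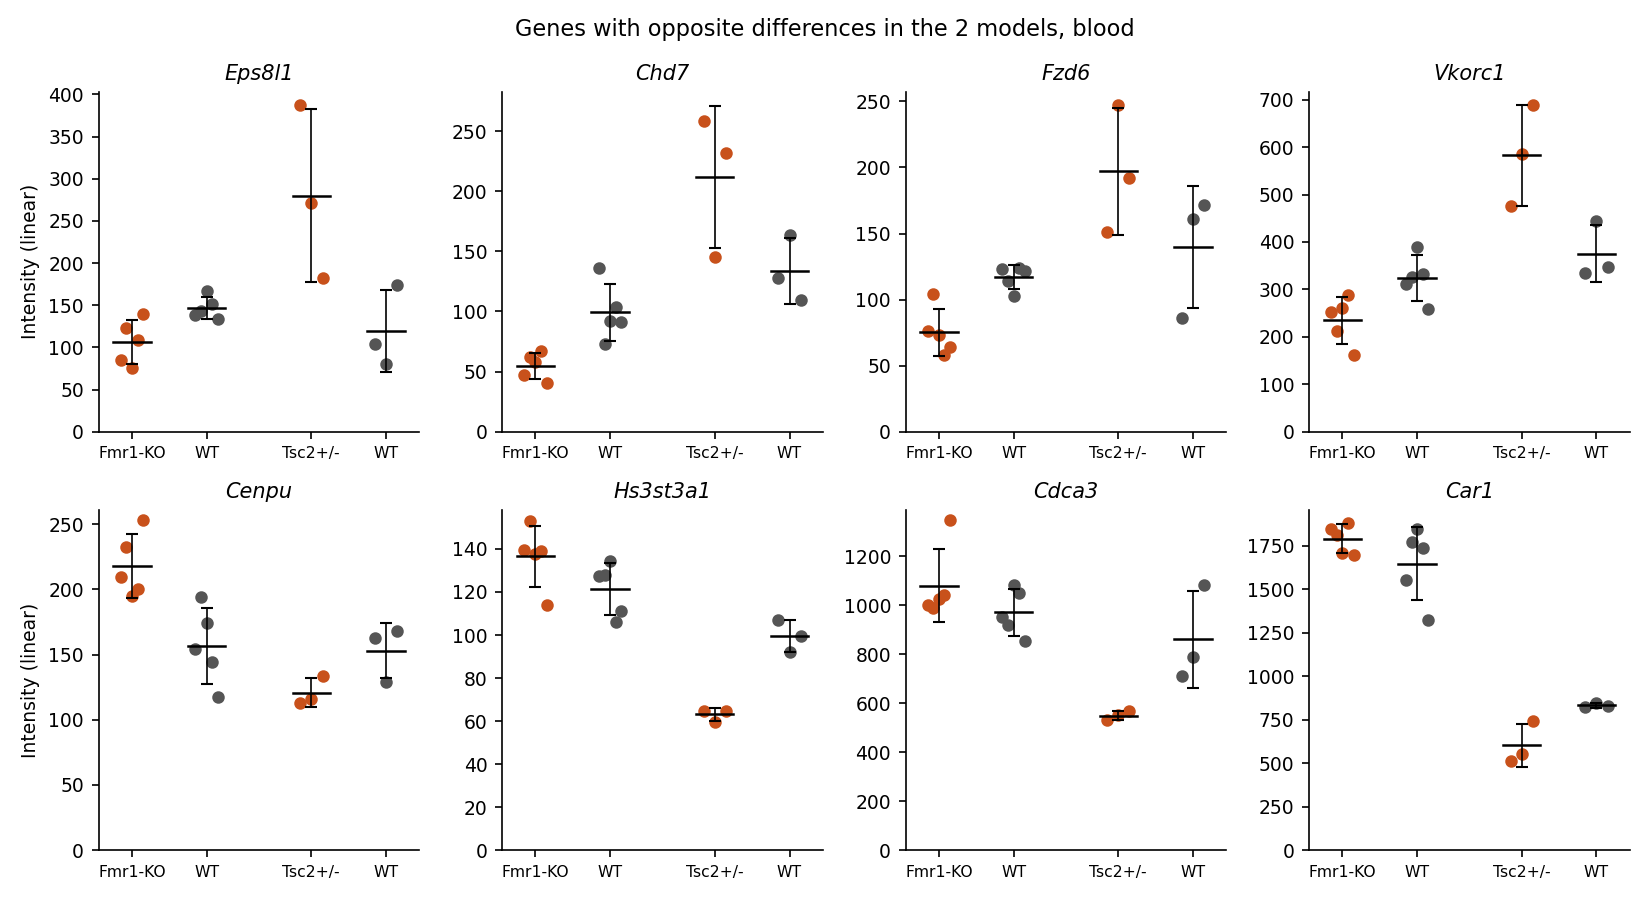
Intensity (linear scale) of 8 genes that moved apart, 1 point for each mouse, with the mean as a bar and the SD as a whisker (n = 5 each for Fmr1-KO and WT, n = 3 each for Tsc2+/- and WT). In the upper row the Fmr1-KO means lie under, and the Tsc2+/- means above, those of WT littermates; in the lower row the order is turned, with Fmr1-KO and WT points overlapping for all but Cenpu.

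Genes lower in both models included several of lymphocytes and dendritic cells. Cd209a, a lectin of dendritic cells and monocytes, had the largest shared difference. Its intensities were 331, 1115, 861, 1152 and 257 in Fmr1-KO blood, against 1636, 1074, 1047, 1355 and 1549 in WT blood. Tsc2+/- blood had 3036, 1245 and 1005, against 2402, 4837 and 6996 in WT blood. Mutant and WT values overlapped in both experiments. The effects were -1.07 ± 0.47 and -1.47 ± 0.60, a mean effect of -1.27 ± 0.38 (exact p = 0.0123). It missed the threshold of 0.01 without each of 4 arrays of the Tsc2 experiment, those of Tsc2+/- mice 2 and 3 and of WT mice 2 and 3, the last being the one with the highest T cell genes.

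Cd3d, a chain of the T cell receptor complex, was at 251.7, 236, 235, 251 and 195 in Fmr1-KO and 339, 289, 300.3, 287 and 235 in WT blood, with Fmr1-KO mouse 5 far under the others of its group. Tsc2+/- blood had 774, 413 and 464, against 673, 706 and 981 in WT blood. The mean effect was -0.43 ± 0.14 (exact p = 0.0226), and it missed the threshold of 0.05 as well once Tsc2+/- mouse 2 and WT mouse 3 were left out. In cerebellum Cd3d differed the other way, with effects of 0.50 and 1.30 (exact p = 0.00595 for the mean effect). The promoter is shown because ETS family factors are known to act on genes of the T cell receptor complex. It spans chr9:44981536-44981835 on the plus strand of GRCm38.p6 (RefSeq), with the reverse complement of GGAAG in capitals 198 and 5 bases before the start.

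Cd3d: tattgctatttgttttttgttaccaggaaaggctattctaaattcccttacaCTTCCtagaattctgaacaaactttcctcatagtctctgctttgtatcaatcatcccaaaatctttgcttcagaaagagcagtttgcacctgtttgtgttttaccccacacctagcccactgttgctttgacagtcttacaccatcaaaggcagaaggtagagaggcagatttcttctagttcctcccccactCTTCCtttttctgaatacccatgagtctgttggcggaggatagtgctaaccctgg

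Of the 10 genes named as lower in both models, 8 had a RefSeq promoter and the first listed held GGAAG in 4 of these, beside 71.4% of all promoters.

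Cd6, a receptor on T cells that tunes their activation, had 456, 530.4, 437, 540 and 400 in Fmr1-KO blood, against 606, 490, 598, 534 and 647 in WT blood. Tsc2+/- blood had 1174, 757 and 809 and WT blood 1048, 1312 and 1530. Its mean effect was -0.40 ± 0.12 (exact p = 0.0127), and it too missed 0.05 without Tsc2+/- mouse 2 and WT mouse 3. Trbv1, a variable segment of the T cell receptor beta chain, had effects of -0.33 ± 0.18 and -0.67 ± 0.23 (exact mean effect p = 0.00159). All 3 genes had higher levels in both genotypes of the Tsc2 experiment than in the Fmr1 experiment.

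Hddc3, Eci3 and Cbr1 were the 3 genes lower in both models that kept a p under 0.01 whichever array was left out. Hddc3, a hydrolase of the alarmone ppGpp, had 138, 143, 144, 183 and 98.1 in Fmr1-KO and 214, 153, 193, 192 and 175 in WT blood. Tsc2+/- blood, at 114, 118 and 88.1, lay wholly under WT blood, at 137, 220 and 234. Its mean effect of -0.63 ± 0.15 (exact p = 0.00119) had the smallest limma p of the named genes in this contrast besides Fmr1. Eci3, an isomerase of unsaturated fatty acid breakdown, was lower without overlap in both models. It was at 59.1, 52.0, 63.1, 65.5 and 52.7 in Fmr1-KO, against 89.9, 76.7, 84.3, 77.4 and 105 in WT blood, and at 44.3, 72.2 and 68.7 in Tsc2+/-, against 73.8, 74.6 and 76.9 in WT blood. The effects were -0.56 ± 0.14 and -0.31 ± 0.18 (exact mean effect p = 4e-04, the smallest possible). Cbr1, a carbonyl reductase of prostaglandins and drugs, had effects of -0.24 ± 0.14 and -0.58 ± 0.18 (exact p = 0.00595). Kif3c is a kinesin of neuronal transport, and Fntb the beta subunit of protein farnesyltransferase, which prenylates Rheb and Ras. Both had Fmr1-KO values wholly under WT values, with effects in Fmr1-KO blood of -0.76 ± 0.21 and -0.66 ± 0.20. Exact mean effect p were 0.00992 for Kif3c and 0.00476 for Fntb. In Tsc2+/- blood Kif3c had an effect of -0.37 ± 0.27 and Fntb of -0.34 ± 0.25.

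Higher in both models were 8 named genes, and none of them kept a p under 0.01 whichever array was left out. Serp1, which guards newly made membrane proteins in the endoplasmic reticulum, was by far the brightest. Its intensities were 4855, 5022, 4925, 5690 and 4669 in Fmr1-KO and 5182, 4270, 4706, 3961 and 3509 in WT blood, and 5024, 7099 and 6603 in Tsc2+/- and 5089, 4354 and 4618 in WT blood. The groups overlapped in both experiments, and the mean effect was 0.31 ± 0.10 (exact p = 0.00913). Vmn2r52, a vomeronasal receptor gene with no known part in blood, had effects of 0.53 ± 0.17 and 0.39 ± 0.22 (exact p = 0.00357). Radx, which guards replication forks, had effects of 0.45 ± 0.17 and 0.40 ± 0.21 (exact p = 0.00437). Itpripl2, BC028528 and Zbtb42 count here by sign only, since their Fmr1-KO effects of 0.09, 0.05 and 0.04 were under their standard errors. Exact mean effect p for these were 0.0179, 0.0683 and 0.0306. Alpi had a Tsc2+/- effect of 0.07 ± 0.16 (exact mean effect p = 0.00754).

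**Figure D3:**
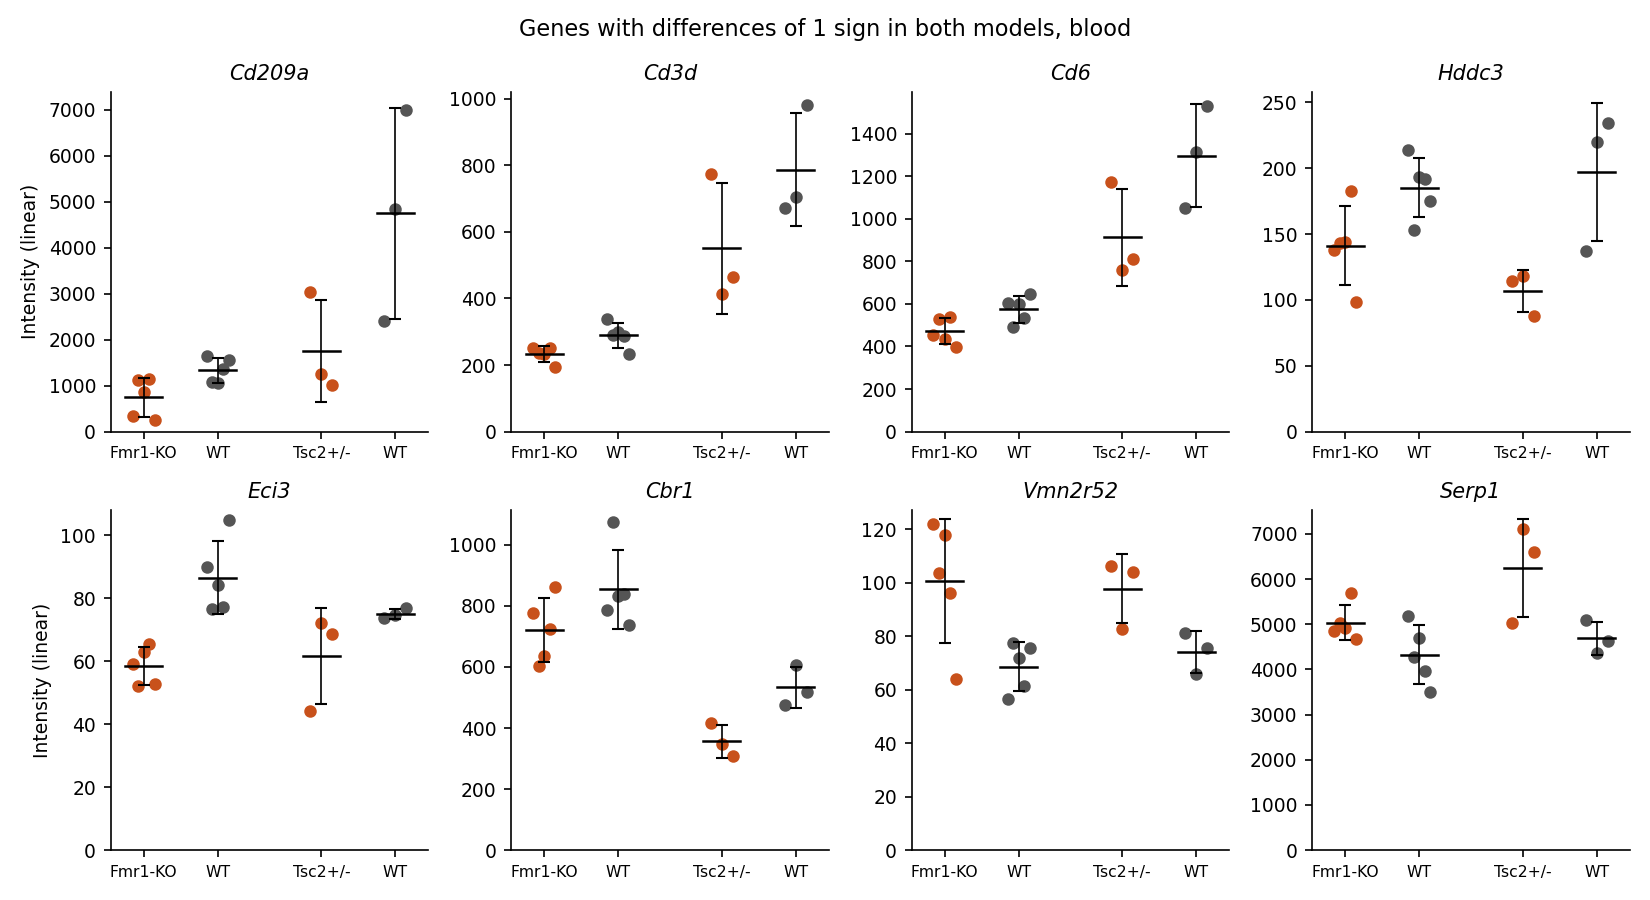
Intensity (linear scale) of 8 genes that moved together, 1 point for each mouse, with the mean as a bar and the SD as a whisker (n = 5 each for Fmr1-KO and WT, n = 3 each for Tsc2+/- and WT). Mean levels of Cd209a, Cd3d, Cd6, Hddc3, Eci3 and Cbr1 are lower, and of Vmn2r52 and Serp1 higher, in mutant blood of both models, and of these Eci3 alone shows no overlap in either experiment.

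The disrupted genes themselves behaved unlike each other. Fmr1 had intensities of 169, 263, 237, 256 and 183 in Fmr1-KO blood, against 636, 587, 659.8, 528 and 335 in WT blood, with no overlap. It was at 522, 568 and 632 in Tsc2+/- and at 578, 502 and 828 in WT blood. The effects were -1.29 ± 0.21 and -0.12 ± 0.27, and the interaction was -1.18 ± 0.34 (exact p = 0.0198). Its mean effect of -0.71 ± 0.17 was likewise under 0.01 (exact p = 0.00556), although the difference lies in 1 model, so that the mean effect alone does not mark a shared change. Tsc2 had 572, 544, 567, 634 and 534 in Fmr1-KO and 679, 693, 689, 637 and 613 in WT blood, and 660.4, 621 and 889.8 in Tsc2+/- and 740, 731 and 1008 in WT blood. Its effects, -0.22 ± 0.12 and -0.19 ± 0.15, were alike in size, and the mean effect of -0.20 ± 0.10 had an exact p = 0.0778. The paper reports Tsc2 as downregulated in Fmr1-KO blood, from a post hoc comparison within that experiment. Group SDs were 39.1 in Fmr1-KO and 35.3 in WT blood, against 145.3 in Tsc2+/- and 157.5 in WT blood. The errors given here rest on 1 spread for all 4 groups. A probe set that lies outside the deleted part would not show the loss, and the position of the Tsc2 probe set was not checked. In cerebellum of the same mice this probe set had effects of -0.004 ± 0.15 in Fmr1-KO and -0.48 ± 0.19 in Tsc2+/- mice. The cause of the difference between tissues was not tested.

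Of a list of genes drawn mostly from the study's text, which leaves out some that it names, 18 were measured. By sign alone 10 were lower in Fmr1-KO and higher in Tsc2+/- blood, against 8677 of all 21789 named probe sets. Besides Eps8l1 and Fmr1, none of the 18 had an interaction or mean effect p under 0.01 by limma at its brightest probe set. Eps8, the founding member of the Eps8 family, had effects of -0.11 ± 0.36 and 0.50 ± 0.46 (exact interaction p = 0.423), within the spread of the mice. Il7r, the receptor for interleukin 7 on lymphocytes, had effects of -0.16 ± 0.17 and 0.21 ± 0.22 in blood (exact p = 0.26). The paper names Il7r for brain, where it was marginally significant in both models. In cerebellum its effects were 0.96 ± 0.23 in Fmr1-KO and 0.83 ± 0.30 in Tsc2+/- mice. Casp1, the protease that matures interleukin 1 beta, had effects of -0.07 ± 0.27 and 0.92 ± 0.35 (exact interaction p = 0.0718), and the Fmr1-KO effect changed sign after quantile normalization. Grin3a, a subunit of the NMDA receptor, was near 0, with 0.0033 to 7.19 in Fmr1-KO and 6.32 to 36.4 in WT blood. Its log2 effect of -5.86 ± 1.60 in that model is therefore that of dim values. Its mean effect had an exact p = 0.00397 and p = 0.0184 by limma, or p = 0.00433 by limma with an offset of 16.

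Gene lists of blood cell types and pathways were laid over these contrasts as a description. All 21789 named probe sets had median effects of -0.08 in Fmr1-KO and 0.04 in Tsc2+/- blood, and at an unadjusted p under 0.05 the interaction was below 0 in 2.98% of all probe sets and above 0 in 0.65%, the mean effect lower in 1.22% and higher in 0.748%. T cell genes mostly had the same sign in both models. All 20 measured were lower in Fmr1-KO blood by sign and 17 of 20 in Tsc2+/- blood, with medians of -0.25 and -0.51. At a mean effect p under 0.05 there were 11 of 20, Cd3d and Cd6 under 0.01 among them. Cd3e, of the same receptor, had 2803, 2731, 2681, 2827 and 1973 in Fmr1-KO blood, all under the WT values of 2900, 2836, 2832, 3190 and 3440. It had 5220, 4384 and 3708 in Tsc2+/- and 5112, 5770 and 9471 in WT blood. The count fell to 4 of 20 without WT mouse 3, to 4 without Tsc2+/- mouse 3 and to 7 without Tsc2+/- mouse 2. Without WT mouse 3 and Tsc2+/- mouse 2 together it was 0 of 20, and the Tsc2+/- median was -0.15.

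Monocyte genes had opposite signs in the models. Of 21 measured, 20 were lower in Fmr1-KO and 18 higher in Tsc2+/- blood by sign, against 65.6% lower and 58.2% higher over all named probe sets, with medians of -0.15 and 0.49, and 10 had an interaction p under 0.05. That count was 3 without Tsc2+/- mouse 3, 4 when WT mouse 1 among their littermates was left out, and 4 without both Tsc2+/- mouse 2 and WT mouse 3. It was 7 with arrays centred and 9 with quantile normalization. Cd68, a lysosomal glycoprotein of macrophages, was the 1 gene of this list under 0.01 as deposited. It had 1696, 1530, 1724, 1788 and 1201 in Fmr1-KO and 1875, 1895, 2376, 1839 and 1481 in WT blood. Tsc2+/- blood had 1482, 2011 and 3475 and WT blood 1051, 1563 and 1157, and the high value of Tsc2+/- mouse 3 stood far above the rest. The interaction of Cd68 was -1.07 ± 0.35 (exact p = 0.0198), and it missed the threshold of 0.01 in 12 of the 16 fits that left out 1 array.

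Genes of lysosomal enzymes and membrane proteins, many of them abundant in monocytes, followed the same pattern. Lower in Fmr1-KO blood were 43 of 48 and higher in Tsc2+/- blood 42 of 48, with medians of -0.14 and 0.26. At an interaction p under 0.05 there were 11, as many without Tsc2+/- mouse 2 and WT mouse 3, and single arrays moved it from 4 without Tsc2+/- mouse 3 and 7 without WT mouse 1 to 18 without Tsc2+/- mouse 2 or WT mouse 2, with 17 without Fmr1-KO mouse 4 or WT mouse 5 of the Fmr1 experiment. Gusb, beta-glucuronidase, had 358, 336, 357, 376 and 309 in Fmr1-KO and 416, 400.1, 432, 338 and 345 in WT blood, beside 561, 718 and 1134 in Tsc2+/- and 405, 553 and 529 in WT blood. Its interaction was -0.80 ± 0.27 (exact p = 0.0119). Of 33 genes of the Toll-like receptor pathway, 6 had an interaction p under 0.05 (12 without Tsc2+/- mouse 1), among them Irf5, a transcription factor of inflammatory cytokines, with effects of -0.08 ± 0.14 and 0.64 ± 0.18 (exact p = 0.0321). Irf5 was under 0.01 by limma as deposited, and missed it in 10 of the 16 fits that left out 1 array. Antigen presentation genes had medians of -0.17 and 0.18. Of these, 22 of 24 were lower in Fmr1-KO and higher in Tsc2+/- blood, against 8677 of all 21789 named probe sets. At an interaction p under 0.05 there were 4, none without the 2 arrays named, and 0 (WT mouse 3) to 7 (WT mouse 2) when 1 array of the 16 was left out. With arrays centred, such counts were 5 for lysosomal, 4 for Toll-like receptor and 0 for antigen presentation genes. With quantile normalization they were 9, 6 and 2.

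Phosphoinositide enzymes and channels had medians of -0.17 and 0.12, with 6 of 59 genes at an interaction p under 0.05. That count was 13 without Fmr1-KO mouse 4, and 4 without Tsc2+/- mouse 3 or without Fmr1-KO mouse 5. It was 3 with arrays centred and 5 with quantile normalization. Inpp5d, which encodes SHIP1, the phosphatase that limits PI3 kinase signalling in blood cells, was the 1 gene of this list under 0.01 as deposited. Its intensities were 1570, 1587, 1560, 1711 and 1249 in Fmr1-KO and 2003, 1719, 1839, 1792 and 1714 in WT blood, and 2442, 2253 and 2488 in Tsc2+/- and 2130, 2057 and 1765 in WT blood. It was thus lower in Fmr1-KO and higher in Tsc2+/- blood without overlap in either experiment, with effects of -0.25 ± 0.10 and 0.28 ± 0.13 and an interaction of -0.52 ± 0.16 (exact p = 4e-04, the smallest possible), which missed the threshold of 0.01 in 6 of the 16 fits that left out 1 array. Outside this list, Klf2, a transcription factor that keeps lymphocytes quiescent, had effects of -0.23 ± 0.16 and 0.61 ± 0.20 (exact interaction p = 0.00714). It too missed the threshold of 0.01 by limma in 6 of the 16 fits that left out 1 array.

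Natural killer genes had the lowest Fmr1-KO median of the cell type lists, at -0.46, beside 0.09 in Tsc2+/- blood, and 18 of 20 were lower in Fmr1-KO blood by sign. The Tsc2+/- median turned to -0.24 without WT mouse 3, with 17 of 20 genes lower, and was 0.34 without Tsc2+/- mouse 2. Klrb1c, a receptor that defines these cells in C57BL/6 mice, had effects of -1.56 and 0.20 (exact interaction p = 0.052). B cell genes had medians of -0.15 and 0.26, with no gene of 21 at p under 0.05 in either contrast. Glucocorticoid response genes had medians of -0.13 and 0.35, with 2 of 19 at an interaction p under 0.05 and 0 to 3 when single arrays were left out.

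**Figure D4:**
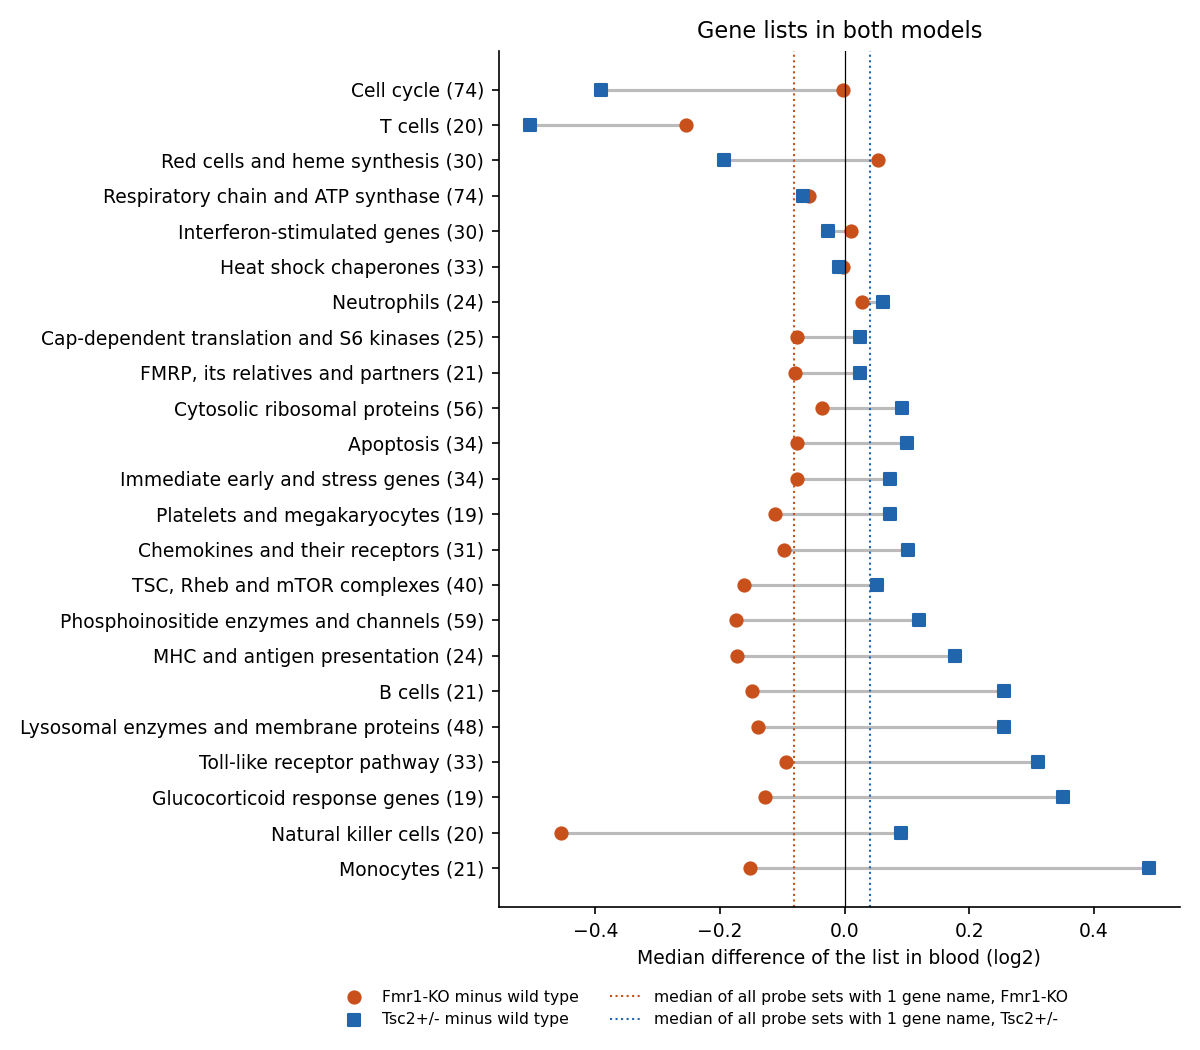
Median log2 difference of gene lists in Fmr1-KO blood (circles) and Tsc2+/- blood (squares), each against WT littermates. The number of measured genes is in brackets, and dotted lines mark the medians of all named probe sets. Not shown are the lists of liver, cerebellum and study genes, the Chd7 probe sets and the neighbours of Fmr1 and Tsc2. T cell genes lie under 0 in both models, and monocyte, Toll-like receptor and lysosomal genes lie under 0 in Fmr1-KO and above 0 in Tsc2+/- blood.

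Genes of dividing cells and of red cells had medians under 0 in Tsc2+/- blood. Cell cycle genes had a median of -0.39 in Tsc2+/- blood, with 66 of 74 lower, and of 0.00 in Fmr1-KO blood, where 37 were lower and 37 higher and where scaling of the arrays changed the sign. At an interaction p under 0.05 with the Fmr1-KO effect above there were 7 of 74, and leaving out single arrays gave 1 (Tsc2+/- mouse 1) to 20 (WT mouse 1 among the Tsc2+/- littermates). Once WT mouse 3 was left out, which had the highest level of these genes, the Tsc2+/- median was 0.00. Red cell and heme genes had medians of 0.05 and -0.19. By sign 20 of 30 were higher in Fmr1-KO and lower in Tsc2+/- blood, against 3487 of all 21789 named probe sets. At an interaction p under 0.05 there were 3 of the 30. Leaving out single arrays gave 1 to 11 for that count, with 11 without WT mouse 3 and 6 without Tsc2+/- mouse 3. Tfrc, the transferrin receptor, had effects of 0.12 and -0.61 (exact p = 0.0754).

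**Figure D5:**
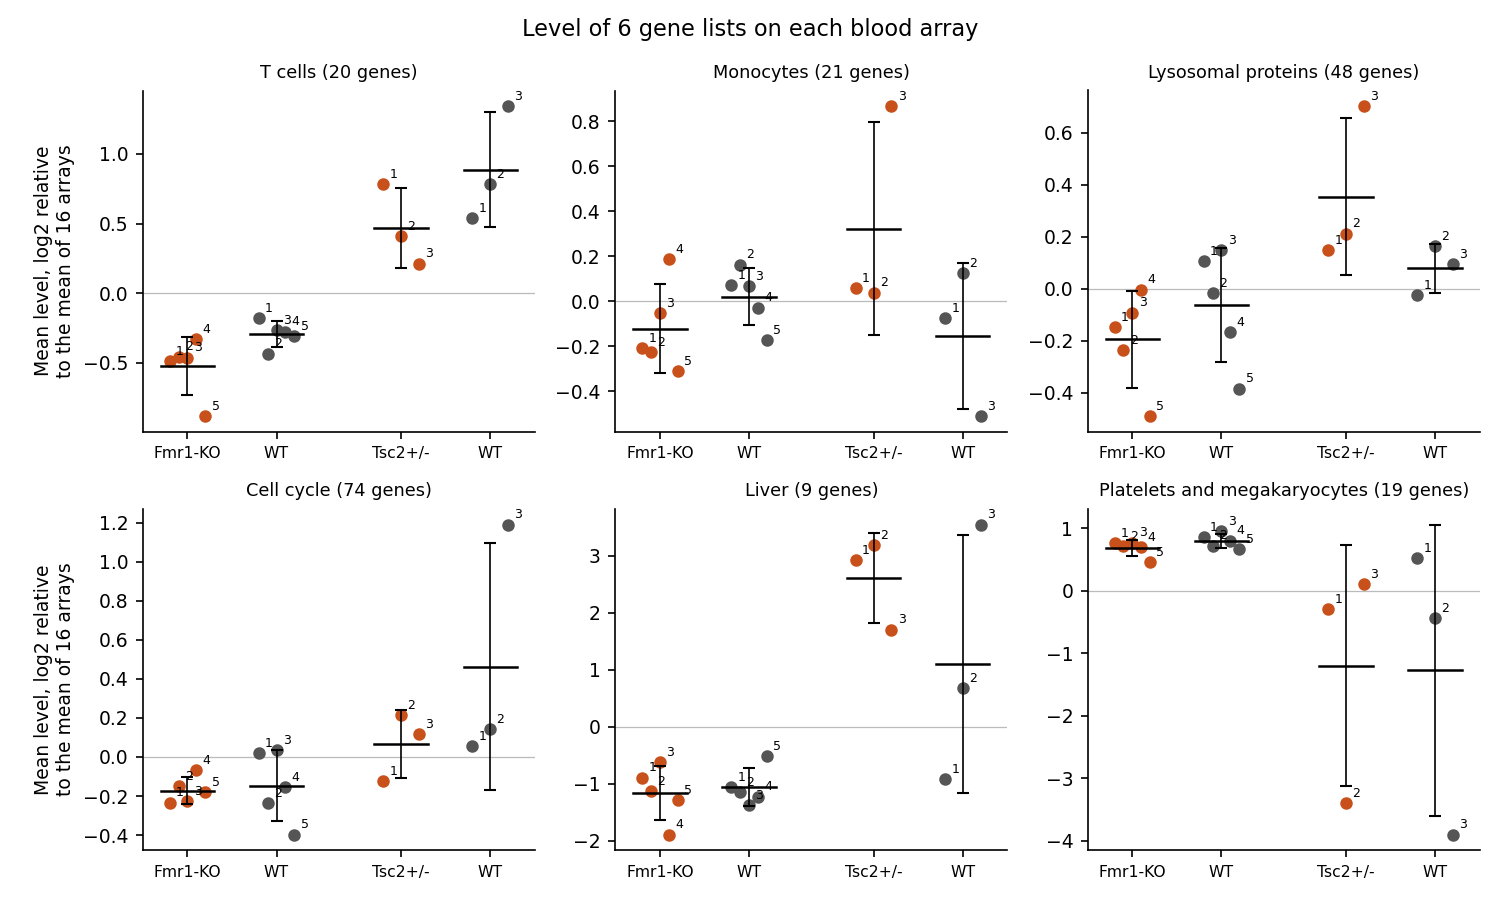
Mean level of 6 gene lists on each blood array, in log2 units relative to the mean of the 16 arrays, numbered by mouse, with group means and SD (n = 5 each for Fmr1-KO and WT, n = 3 each for Tsc2+/- and WT). Tsc2+/- mouse 2 and WT mouse 3 of that experiment are lowest in platelet genes, WT mouse 3 is highest in T cell and cell cycle genes, and liver genes are high in all 3 Tsc2+/- mice and in 2 of their WT littermates.

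Few genes passed a test in the pathways in which the disrupted genes act. Of 40 genes of the TSC, Rheb and mTOR complexes, 1 had an interaction p under 0.05, which was Lamtor4, a part of the Ragulator that tethers mTORC1 to lysosomes, with effects of -0.22 and 0.33 (exact p = 0.0294). The medians of this list were -0.16 and 0.05, and by sign 36 of 40 were lower in Fmr1-KO blood, against 65.6% of all named probe sets, and 24 of 40 higher in Tsc2+/- blood. With arrays centred the medians were -0.11 and 0.01. No gene of 25 of cap-dependent translation passed p under 0.05 in either contrast, and among FMRP relatives and partners Fmr1 was the only one of 21. Cytosolic ribosomal protein genes had medians of -0.04 (0.02 with arrays centred) and 0.09 with no gene of 56 at p under 0.05, and interferon-stimulated genes medians of 0.01 and -0.03. Among the 20 genes on either side of Fmr1 and of Tsc2, which are carried along with the disrupted gene, no neighbour of Fmr1 and 1 neighbour of Tsc2 passed an interaction or mean effect p of 0.01. That neighbour was Amdhd2, a deacetylase of amino sugars on chromosome 17, with effects of -0.38 ± 0.11 and 0.21 ± 0.14 (exact interaction p = 0.00278), so that its larger difference was in the model where its neighbour is intact.

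Cerebellum values of the same mice were set beside blood. Of the 174 probe sets that moved apart in blood, 78 had an interaction of the same sign in cerebellum, and of the 83 that moved together, 40 had a mean effect of the same sign. In both sets the same sign was thus held by the minority. Among the 38 probe sets named, 2 had a p under 0.01 in cerebellum, Eps8l1 with the same direction in both models as in blood and Cd3d with the opposite one. Blood and cerebellum of a mouse share that mouse, and their arrays were normalized together.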

How the data were processed

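The authors labelled total blood RNA and hybridised it to Affymetrix Mouse Gene ST 1.0 arrays, and did the same for cerebellum. They normalized the arrays together by quantiles at the probe level and summarised probe sets with PLIER in Affymetrix Power Tools, whose versions are not given in the sources used here. The deposited table holds linear intensities. Groups were taken from the deposited labels. Arrays give no read depth, so the number of mice limits the precision.

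Here log2 intensities, without an offset, were fitted by limma 3.58.1 (lmFit, eBayes; R 4.3.3) with a mean for each of the 4 groups over the 16 blood arrays, and likewise over the cerebellum arrays. Contrasts were each effect, their difference and their mean, two-sided, with Benjamini-Hochberg adjustment over 35556 probe sets. The threshold of 0.01 is that of the study's methods. The exact permutation test was planned for 6 genes of the study and added for the other named genes after seeing the data. Gene names come from the platform annotation.

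Named are, among probe sets with 1 gene name and a mean intensity of at least 64, the 10 with the largest value of the smaller effect in each direction, then a list of genes drawn mostly from the study, and up to 4 members of each list, those with the smallest p. Each list gene was taken at its brightest probe set. Hectd4, Amdhd2 and the count over Chd7 probe sets were chosen after their values were seen. The members and lists were chosen with earlier results of these data known. The fit was tested on simulated data. Alternatives were an offset of 16, filters on dim or unnamed probe sets, an intensity trend, no moderation, centring, quantile normalization, array weights, a fit of all 32 arrays, a replicate block, a p under 0.05 and leaving out each array. Leaving out Tsc2+/- mouse 2 with WT mouse 3, and the liver genes as a covariate, were chosen after seeing the data.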

Additional observations from a re-analysis of the deposited data

Results flagged for a closer look

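In groups of 5 mice, 7 values stood apart from the others of their group by a gap of more than 0.71 of the group's range, of 160 groups tested, while chance alone marks about 1 group in 20. In Fmr1-KO mouse 5 these were Cdca3 at 1347, Cd3d at 194.6, Oxtr, the oxytocin receptor, at 148.5, the mean of the T cell genes at 923.3 and the mean of the platelet genes at 5757. This mouse also had the lowest array median, at 134. In Fmr1-KO mouse 3, which had the highest mean level of the cerebellum list, Itpripl2 was at 333.8. In WT mouse 5 of the Fmr1 experiment, Pi4k2b, a kinase of phosphatidylinositol, was at 279.2. The 1 probe set whose effects differed between models at an adjusted p under 0.05 by limma was the unnamed probe set 10342883, with an interaction of 10.523. It was between 0.51 and 7.01 in Fmr1-KO mice, and between 0.00075 and 0.0047 in WT mice of that experiment, all values near 0.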

How the results depend on the processing

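Counts are given for the interaction, the mean effect, moving apart and moving together at an unadjusted p under 0.01 (181, 96, 174 and 83). Array weights gave 576, 413, 555 and 376, a fit of all 32 arrays 583, 318, 559 and 279, and the liver covariate 619, 541, 503 and 391, of which 144, 135 and 96 of the 174 moved apart again. Probe sets with 1 gene name alone gave 50 for the mean effect and 45 moving together, and quantile normalization gave 148 and 136. At p under 0.05, 1227 moved apart and 617 together. At an adjusted p under 0.05 by limma (1 and 1), the offset, the filter on dim probe sets, the filter on unnamed ones, the intensity trend and quantile normalization gave 0 and 0. Centring and array weights gave 2 for the interaction, all 32 arrays 7 and 5, the liver covariate 3 and 6, and leaving out Tsc2+/- mouse 2 with WT mouse 3 gave 6 and 2. The causes were not tested.

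Leaving out 1 array at a time gave 119 to 359 for the interaction, 77 to 244 for the mean effect, 111 to 347 apart and 58 to 158 together, with 0 to 5 and 1 to 4 at an adjusted p under 0.05. The interaction count was 353 without Fmr1-KO mouse 4, 357 without Tsc2+/- mouse 1, 359 without WT mouse 3 of the Tsc2 experiment and 119 when WT mouse 1 of the Fmr1 litters was left out. The mean effect count was 244 without Tsc2+/- mouse 1, and leaving out a WT littermate of the Tsc2+/- mice gave 166 (mouse 1) and 169 (mouse 3). Of 44 called gene results, 13 kept the call without every array in turn and 29 lost it without Tsc2+/- mouse 2 and WT mouse 3 together. A replicate block gave 196, 100, 187 and 73 and lost 25 of the 44. Replicate numbers did not pair the mice, with correlations of -0.28 to 0.25 between same-numbered mice and 1 of 8 numbers correlating best with its own.

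The interactions of 4 platelet genes, all below 0 and far from the threshold, turned above 0. Array weights gave 0.05 for Thbs1, 0.318 for Plek and 1.012 for Tubb1. Leaving out both low-platelet arrays gave 0.033 for Tbxas1 and 0.017 for Plek, and leaving out single arrays gave -1.377 to 0.269 for Thbs1, -0.587 to 0.159 for Tbxas1, -0.933 to 0.522 for Plek and -2.298 to 1.259 for Tubb1. Intensities under 16, up to 12.4% of an array, limit what log2 differences can show.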

Other observations

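Hectd4, a large ubiquitin ligase gene outside the named rule, was lower in both models at 3 probe sets, with mean effects of -0.41, -0.40 and -0.40 (exact permutation p = 0.00159, 0.00675 and 0.00357). At the first of these, Fmr1-KO mice had 2184, 1797, 1853, 2091 and 2624, against 2524, 3184, 2995, 4036 and 3142 in WT littermates, and Tsc2+/- mice had 2086, 1912 and 2379, against 2638, 2197 and 2622 in WT littermates. The probe sets share the same RNA, the groups overlapped in both experiments, and the effects in Fmr1-KO blood, near -0.59, were larger than those near -0.23 in Tsc2+/- blood.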
